A study of Macaca mulatta with 6 samples.

Results

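De novo lipogenesis builds fatty acids from acetyl-CoA, and 8 of its genes were followed here in luteal cells treated with an agonist of the liver X receptors (LXRs). The genes are ACLY, ACSS2, ACACA, ACACB, FASN, ME1, THRSP and MID1IP1, taken as every probe set that carries 1 of these symbols. They comprise 17 of the 52766 probe sets tested and 8 of the 14132 named genes. The cells were dispersed from the corpus luteum of rhesus macaques 12 days after the surge of luteinizing hormone and cultured without serum on fibronectin for 24 h. The vehicle cultures received 0.1% dimethyl sulfoxide (DMSO) and the treated cultures 1 µM T0901317, a synthetic LXR agonist, from plating onward. There were 3 arrays per group, and treated and vehicle arrays of the same replicate number form a pair by the series' design text. The sources used here do not say whether both cultures of a pair came from 1 animal, how old the animals were or how pure the dispersed cells were.

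The pathway starts from citrate. ATP citrate lyase (ACLY) splits exported citrate into acetyl-CoA, and ACSS2 makes acetyl-CoA from acetate. Acetyl-CoA carboxylase turns acetyl-CoA into malonyl-CoA, in the cytosol through ACACA and at the mitochondrial surface through ACACB, whose product also restrains fatty acid import for oxidation. Fatty acid synthase (FASN) then builds palmitate with NADPH, which malic enzyme (ME1) helps to supply. THRSP and MID1IP1 are small related proteins without enzyme activity of their own, and MID1IP1 promotes the assembly of acetyl-CoA carboxylase into active polymers. In liver, LXRs raise many of these genes, directly and through the transcription factor SREBP-1c, a product of SREBF1. Luteal cells use lipid chiefly as cholesterol, the precursor of progesterone.

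The arrays had median log2 levels of 5.54 to 5.71. A reference for dim signal, the 95th percentile of the mean levels of the Bacillus control probe sets, was 4.63, and all 17 probe sets lay above it on all 6 arrays. Replicate 3 had a larger gap between 3' and 5' control probe sets, a sign of RNA quality: for actin it was 3.50 with DMSO and 2.45 with T0901317, against 1.54 to 2.03 on the other 4 arrays. As a mean over actin, GAPDH and EF1a, the gap was 0.18 higher with T0901317 in pair 1, and -0.056 and -0.59 in pairs 2 and 3. Of 10 markers of steroidogenic luteal cells 7 were measured, all above the dim reference, with STAR at mean log2 levels of 11.00 with DMSO and 10.91 with T0901317. CYP11A1, LHCGR and SCARB1 were not analysed here. In cells of mixed type, more RNA per cell and more cells of a type cannot be told apart.

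T0901317 raised 1 probe set each of ACACA, FASN and MID1IP1, by 0.84, 0.63 and 0.69 on the log2 scale. The other 14 probe sets did not pass, and none fell (0.0246% of all probe sets were called lower). The 3 called make 17.6% of the members' probe sets, against 0.0853% of all probe sets called in either direction and 0.0606% called higher (limma, adjusted p under 0.05). The members were chosen with earlier results of these data known, so this contrast does not test them. All 17 were named and above the dim reference, unlike many of all probe sets. With dim probe sets left out, 50 of 37637 passed, among them the same 3. Of the 8 genes by their representative probe sets, ACACA and FASN rose and 6 did not pass, against 0.113% of all named genes called higher. The median difference was 0.060 over the 17 probe sets and 0.0044 over all probe sets. Above 0 lay 10 of the 17, all 5 ME1 probe sets among them, against 51.4% of all probe sets. By representative probe set the 8 genes had a median of -0.0086, with 3 above 0. Over all named genes the median was -0.021, with 41.4% above 0. In 5 probe sets all 3 pairs were higher, a pattern that 12% of all probe sets showed. No member separated the 3 treated from the 3 vehicle arrays completely (0 of 17), against 1.38% of all probe sets with T0901317 higher and 1.07% with it lower. The calls rest on the pairing: without the replicate block 0 of the 17 passed in limma, and 0 passed without the variance trend (2 and 3 at an unadjusted p under 0.05).

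**Figure D1:**
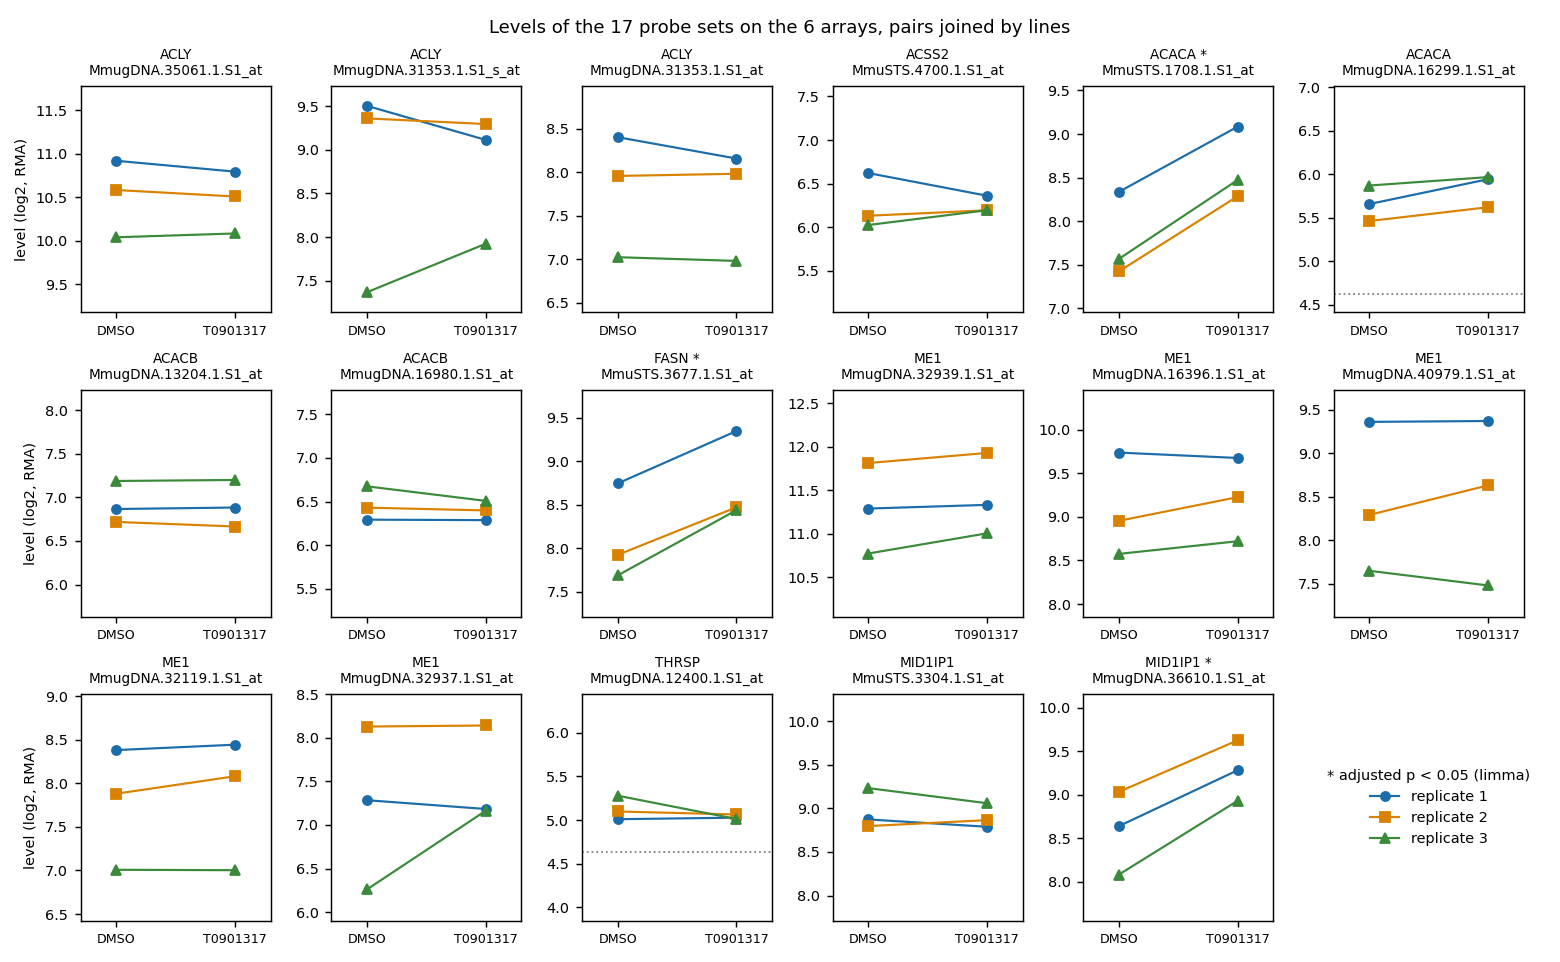
Log2 levels (vertical axis, of the same span in each panel) of the 17 probe sets with DMSO and with T0901317 (horizontal axis). Each symbol is 1 array, lines join the 2 arrays of a replicate, the dotted line is the dim reference of 4.63 where it falls in the panel, and stars mark an adjusted p under 0.05. The 3 lines rise side by side in the starred panels of ACACA, FASN and MID1IP1.

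Neither gene of acetyl-CoA supply passed on any probe set. ACLY was read by 3 probe sets. MmugDNA.35061.1.S1_at, its representative, had log2 levels of 10.92, 10.58 and 10.04 with DMSO and 10.79, 10.51 and 10.08 with T0901317 in replicates 1 to 3. The treated arrays thus covered nearly the same span as the vehicle arrays. The difference was -0.052 ± 0.074 (limma SE, 3 pairs) with a 95% interval of -0.21 to 0.11. MmugDNA.31353.1.S1_at had pair differences of -0.25, 0.025 and -0.043 and a mean of -0.088 ± 0.10.

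The third ACLY probe set, MmugDNA.31353.1.S1_s_at, is marked by its suffix as one whose probes may read more than a single transcript. It had log2 levels of 9.50, 9.36 and 7.37 with DMSO and 9.11, 9.30 and 7.92 with T0901317. The vehicle array of replicate 3 stood far below the others, and the pairs went different ways, with differences of -0.39, -0.065 and 0.56. The mean was 0.034 ± 0.15. It was -0.23 without replicate 3 and -0.16 with the RNA quality measure as a covariate, neither past the threshold (adjusted p = 0.63 and 0.69; 0.63 to 1.00 over the 11 alternatives).

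ACSS2, the acetate route, was read by 1 probe set, MmuSTS.4700.1.S1_at. Its log2 levels were 6.62, 6.13 and 6.03 with DMSO and 6.36, 6.19 and 6.19 with T0901317. The vehicle array of replicate 1 was the highest of the 6. The difference was -0.0093 ± 0.13, lower in pair 1 and higher in pairs 2 and 3, with a 95% interval of -0.29 to 0.27.

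Acetyl-CoA carboxylase moved on 1 of its 4 probe sets. ACACA, the cytosolic form, had log2 levels on MmuSTS.1708.1.S1_at of 8.34, 7.42 and 7.57 with DMSO and 9.08, 8.29 and 8.47 with T0901317. The vehicle array of replicate 1 stood above the treated array of replicate 2, but every treated array was above its own vehicle. The pair differences were 0.75, 0.86 and 0.91 (SD 0.081), with a mean of 0.84 ± 0.096 or 1.79-fold (limma, adjusted p = 0.0059; 95% interval 0.63 to 1.05). It was the largest difference of the 17 and the steadiest call, kept without each replicate in turn at 0.81 to 0.88 (adjusted p = 1.2e-08 to 0.016). Without replicate 3 the adjusted p was lowest although the SE rose to 0.12, so the adjusted p of these fits does not measure steadiness.

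A second ACACA probe set, MmugDNA.16299.1.S1_at, did not show a rise of that size. Its log2 levels were 5.66, 5.46 and 5.87 with DMSO and 5.94, 5.62 and 5.97 with T0901317. All 3 pairs were higher with treatment, by 0.29, 0.16 and 0.097, but the mean of 0.18 ± 0.12 did not pass (adjusted p = 1.00). Its difference lay below that of the other probe set in 3 of 3 pairs, by a mean of -0.66 ± 0.18 (SD, n = 3). When both ACACA probe sets were averaged the gene had 0.51 ± 0.095 and no longer passed (adjusted p = 0.22).

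ACACB, the form tied to control of fatty acid oxidation, did not pass on either of its probe sets. MmugDNA.13204.1.S1_at had log2 levels of 6.87, 6.72 and 7.19 with DMSO and 6.88, 6.67 and 7.20 with T0901317. Its pair differences of 0.017, -0.052 and 0.012 were the tightest of any member, with a mean of -0.0079 ± 0.11. MmugDNA.16980.1.S1_at had 6.29, 6.43 and 6.67 with DMSO and 6.29, 6.40 and 6.51 with T0901317, a mean difference of -0.068 ± 0.11. The 95% intervals reached at most 0.23 and 0.18, below the lower bound of 0.63 for the called ACACA probe set. The interval of the other ACACA probe set, -0.088 to 0.45, overlapped both.

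FASN, the synthase itself, rose on its 1 probe set, MmuSTS.3677.1.S1_at. Its log2 levels were 8.74, 7.92 and 7.69 with DMSO and 9.34, 8.47 and 8.44 with T0901317. The vehicle array of replicate 1 stood above the treated arrays of replicates 2 and 3, so the groups overlapped while each pair rose. The pair differences were 0.60, 0.55 and 0.75 (SD 0.10), with a mean of 0.63 ± 0.094 or 1.55-fold (limma, adjusted p = 0.036; 95% interval 0.43 to 0.84). The size held at 0.57 to 0.67 when 1 replicate was left out. Leaving out replicate 1 (0.65; adjusted p = 0.16) or replicate 2 (0.67; adjusted p = 0.075) ended the call. Over the 11 alternatives the adjusted p ran from 1.5e-04 to 1.00, lowest without replicate 3, where the SE was larger (0.11).

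ME1, which feeds NADPH to the synthase, had 5 probe sets, all with a mean above 0 and none past the threshold. Their differences ran from 0.060 to 0.27 with a median of 0.12, beside 51.4% of all probe sets above 0. The 5 share a gene and its RNA, so they are not independent readings of the treatment. MmugDNA.32939.1.S1_at, the representative, had log2 levels of 11.29, 11.81 and 10.77 with DMSO and 11.33, 11.93 and 11.01 with T0901317. Each treated array was slightly above its vehicle, and the difference was 0.13 ± 0.068 (adjusted p = 1.00; 95% interval -0.019 to 0.28). That interval ends below the lower bounds of the called ACACA probe set (0.63) and of FASN (0.43), while that of MmugDNA.32937.1.S1_at reaches 0.64.

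The other ME1 probe sets scattered more between pairs. MmugDNA.16396.1.S1_at had pair differences of -0.062, 0.27 and 0.15, and MmugDNA.40979.1.S1_at 0.010, 0.34 and -0.17. MmugDNA.32119.1.S1_at had 0.062, 0.20 and -0.0046. Pair 2 was the highest in these 3 probe sets. MmugDNA.32937.1.S1_at had log2 levels of 7.28, 8.13 and 6.26 with DMSO and 7.18, 8.14 and 7.16 with T0901317. Its mean of 0.27 ± 0.17 came from pair 3, where it was 0.90 higher, while pairs 1 and 2 had -0.10 and 0.012. Without replicate 3 it was -0.044, and with the RNA quality covariate 0.058. In pair 3 the 3' to 5' gap of actin also differed, by -1.05 with T0901317.

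THRSP, a thyroid hormone responsive protein of lipogenic tissues, lay close to the dim reference. On MmugDNA.12400.1.S1_at its log2 levels were 5.01, 5.10 and 5.28 with DMSO and 5.03, 5.06 and 5.01 with T0901317. The 6 levels lay close together, and the difference was -0.095 ± 0.13 (95% interval -0.38 to 0.19), most of it from pair 3 (-0.27).

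MID1IP1, the relative of THRSP that activates acetyl-CoA carboxylase, gave different answers on its 2 probe sets. On MmugDNA.36610.1.S1_at its log2 levels were 8.64, 9.03 and 8.08 with DMSO and 9.28, 9.63 and 8.93 with T0901317. The highest vehicle array, that of replicate 2, was above the lowest treated array, that of replicate 3, and every pair rose. The pair differences were 0.64, 0.59 and 0.85 (SD 0.14), with a mean of 0.69 ± 0.092 or 1.62-fold (limma, adjusted p = 0.016; 95% interval 0.49 to 0.89). Leaving out replicate 1 ended the call (0.72; adjusted p = 0.067). Over the 11 alternatives the adjusted p ran from 1.6e-06 to 1.00, lowest without replicate 3, where the SE was larger (0.10).

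On MmuSTS.3304.1.S1_at, the representative of MID1IP1, the log2 levels were 8.87, 8.80 and 9.23 with DMSO and 8.79, 8.86 and 9.06 with T0901317. These levels did not follow treatment in a common direction, with pair differences of -0.084, 0.068 and -0.17 and a mean of -0.063 ± 0.091 (95% interval -0.26 to 0.14). The replicates also stood in another order: replicate 3 was the highest vehicle array here and the lowest on the called probe set. The called probe set exceeded this one by 0.73, 0.52 and 1.02 in the pairs, a mean of 0.76 ± 0.25 (SD, n = 3). Averaged over both, MID1IP1 had 0.32 ± 0.078 (adjusted p = 0.72), so the call of this gene rests on the choice of probe set.

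**Figure D2:**
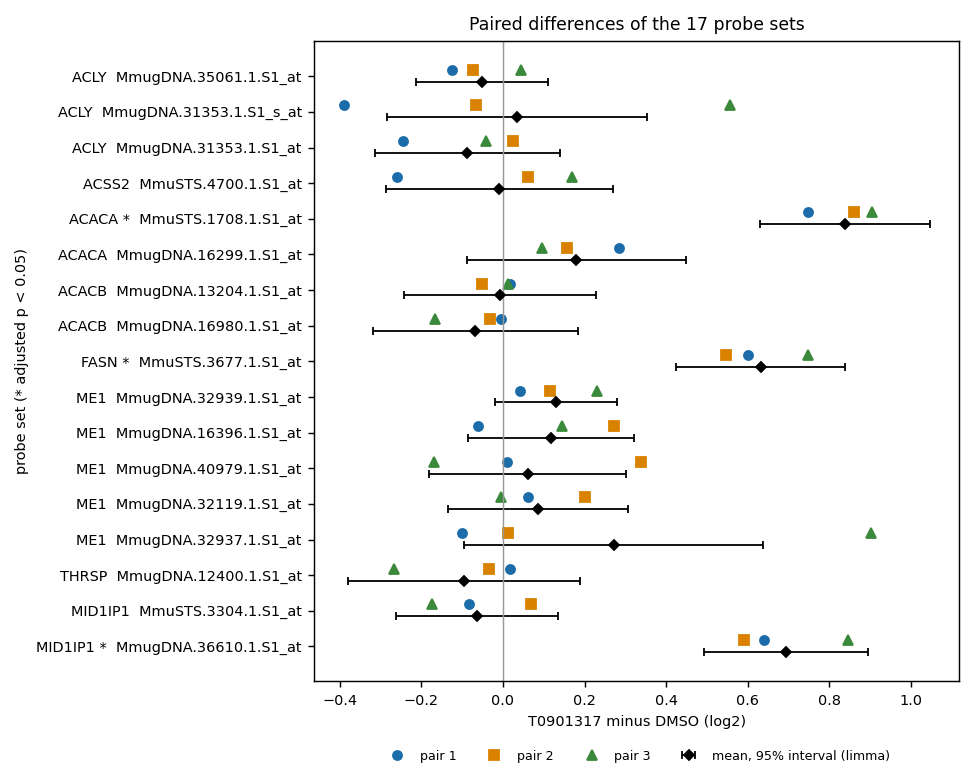
Treated minus vehicle differences on the log2 scale (horizontal axis) of the 17 probe sets (vertical axis). Coloured symbols are the 3 pairs, and black diamonds the means with 95% intervals from limma. The intervals of the starred probe sets of ACACA, FASN and MID1IP1 lie wholly above 0, and those of the other 14 all include 0.

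In all, 9 probe sets were set against the representative of their own gene. Only those of ACACA and MID1IP1 differed in the same direction in 3 of 3 pairs. For both the exact two-sided sign-flip test gave p = 0.25, the smallest that 3 pairs allow, or 1.00 after Benjamini-Hochberg adjustment over the 9. The place of each probe set along its transcript was not analysed here, so probe sets of 1 gene may read different parts or forms of its RNA.

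Differences between genes were compared in the same way by representative probe sets, which for ACACA is the called one, with pairs of genes chosen in view of their values. FASN exceeded ACLY by 0.68 ± 0.055 (SD, n = 3 pairs), ACSS2 by 0.64 ± 0.20, ACACB by 0.64 ± 0.084, ME1 by 0.50 ± 0.065 and THRSP by 0.73 ± 0.25. On its called probe set ACACA exceeded the same 5 genes by 0.71 (ME1) to 0.93 (THRSP), and FASN by 0.21 ± 0.094. The order of ACACA and FASN turns with the probe set, since the other ACACA probe set had 0.18 and the mean of both 0.51, below the 0.63 of FASN. The 5 other genes had -0.095 (THRSP) to 0.13 (ME1), so the size of their gaps to ACACA depends on the probe set as well. All 11 differences had the same sign in 3 of 3 pairs, which the choice of gene pairs in view of their values made likely beforehand. The exact p was 0.25 for each, raw and adjusted over the 11, which is the smallest this design can give.

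Replicates differed in these genes even without treatment. Over the 3 vehicle arrays the called probe sets of ACACA, FASN and MID1IP1 spanned 0.91, 1.05 and 0.95 log2 units, each more than its mean rise. Replicate 1 had the highest vehicle level on the called probe sets of ACACA and FASN, on all 3 probe sets of ACLY, on ACSS2 and on 3 of the 5 of ME1. Replicate 3 had the lowest on FASN, ACSS2, all ACLY and all ME1 probe sets and on the called one of MID1IP1. Both ACACB probe sets, THRSP, the uncalled ACACA and the uncalled MID1IP1 probe sets had their highest vehicle level in replicate 3. The lower levels in replicate 3 go with the larger 3' to 5' gap of its controls, whose part in them was not tested.

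The profiles of FASN and ACACA over the 6 arrays were among the most alike. Both were picked because they passed, so a shared rise with treatment is built into this likeness. Of 12263 other named genes above the dim reference, FASN ranked 3 by likeness to the called ACACA probe set (Pearson r = 0.949 over 6 arrays, which share 3 replicates), after SRRT (0.956) and DXO (0.951). For FASN the most similar were CDCA7L (0.982), SRRT (0.978) and NOC4L (0.955), and ACACA ranked 7. CDCA7L, which encodes a nuclear protein, resembled FASN in its differences too, with 0.43, 0.61 and 0.79 in the pairs and a mean of 0.61 that did not pass (adjusted p = 0.069). SRRT, DXO and NOC4L differed by 0.062 to 0.10 with treatment, less than FASN or ACACA did. The called MID1IP1 probe set was nearest to PKN3 and CYP2F1 (both 0.994) and PEX16 (0.977), which differed by 0.072 to 0.19. FASN ranked 2475 and ACACA 3022 for it.

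Around these enzymes few genes passed. In 7 lists of the pathway's surroundings 73 genes were measured, and 2 passed, both higher, against 0.177% of all named genes called in either direction. Both are regulators: SREBF1, which encodes the transcription factors SREBP-1a and SREBP-1c, rose by 1.49 ± 0.14 (adjusted p = 0.0015) and NR1H3, which encodes LXR alpha, by 1.24 ± 0.11 (adjusted p = 0.0011). Their pair differences were 1.55, 0.97 and 1.94 for SREBF1 and 1.42, 1.02 and 1.29 for NR1H3. In both, pair 2 had the smallest rise, as it did for FASN and the called MID1IP1 probe set but not for ACACA. The largest rise was in pair 1 for NR1H3, and in pair 3 for SREBF1, FASN and the called ACACA and MID1IP1 probe sets. A link between the regulators and these genes was not tested. On its other probe sets SREBF1 had 1.04 ± 0.12 (adjusted p = 0.0070) and, on MmugDNA.23742.1.S1_at, 0.23 ± 0.13 (adjusted p = 1.00). Of the 18 regulators measured 16 did not pass, and the median over all 18 was 0.049. MLXIPL, which encodes the carbohydrate-responsive factor ChREBP, had 0.054 ± 0.11.

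None of the genes that feed the pathway passed. Citrate and acetyl-CoA supply had 9 of 15 genes measured and a median of -0.0082. By representative probe set the largest test statistics were those of DLAT (0.12 ± 0.10) and DLD (0.20 ± 0.20), subunits of the pyruvate dehydrogenase complex. Another DLAT probe set, MmugDNA.22626.1.S1_at, went the other way, at -0.23 ± 0.10 and lower in each pair, and did not pass. DLD was 0.99 higher in pair 3 and lower in the other two. SLC25A1, the mitochondrial citrate exporter, had -0.073 ± 0.087. NADPH supply had 7 of 11 measured and a median of 0.0033, with the cytosolic isocitrate dehydrogenase IDH1 (0.15 ± 0.088) and the transaldolase TALDO1 (-0.027 ± 0.057). For comparison, the median over all named genes was -0.021.

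Genes that control or share the enzymes' chemistry did not pass either. Control of acetyl-CoA carboxylase and fatty acid synthase had 11 of 16 measured and a median of -0.034, with PRKAB1 (-0.094 ± 0.097), a subunit of the AMP-activated kinase that inhibits the carboxylase, and TRIB3 (-0.090 ± 0.096). Mitochondrial fatty acid synthesis, a separate pathway with separate enzymes, had 6 of 9 measured and a median of -0.038, with OXSM (-0.11 ± 0.11) and LIAS (0.045 ± 0.12).

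Downstream, no gene that lengthens, desaturates or esterifies palmitate passed. This list had 12 of 17 genes measured and a median of 0.0093. Its leading members were ACSL1, which activates fatty acids (0.31 ± 0.084; adjusted p = 0.73), and the desaturase FADS2 (0.39 ± 0.11; adjusted p = 0.85), both higher in 3 of 3 pairs. ELOVL6, which lengthens palmitate, had -0.17 ± 0.095 on its representative, and 0.012, 0.072 and -0.028 on its other probe sets. SCD was not analysed here. Mitochondrial fatty acid oxidation had 10 of 16 measured and a median of -0.071. Of the 10, 8 lay below 0, against 8288 of all 14132 named genes, and 12 of 18 over all probe sets of the list. Its leading members were ACADVL (-0.21 ± 0.081) and HADHA (-0.16 ± 0.088), enzymes of long-chain oxidation. HADHA had -0.055 ± 0.083 on another probe set. CPT1A, the step that malonyl-CoA inhibits, had -0.17 ± 0.11 on its representative and -0.075 ± 0.14 on another probe set. The representative passed under 1 of the 11 alternatives, the fit without replicate 3, which called 328 of all probe sets.

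**Figure D3:**
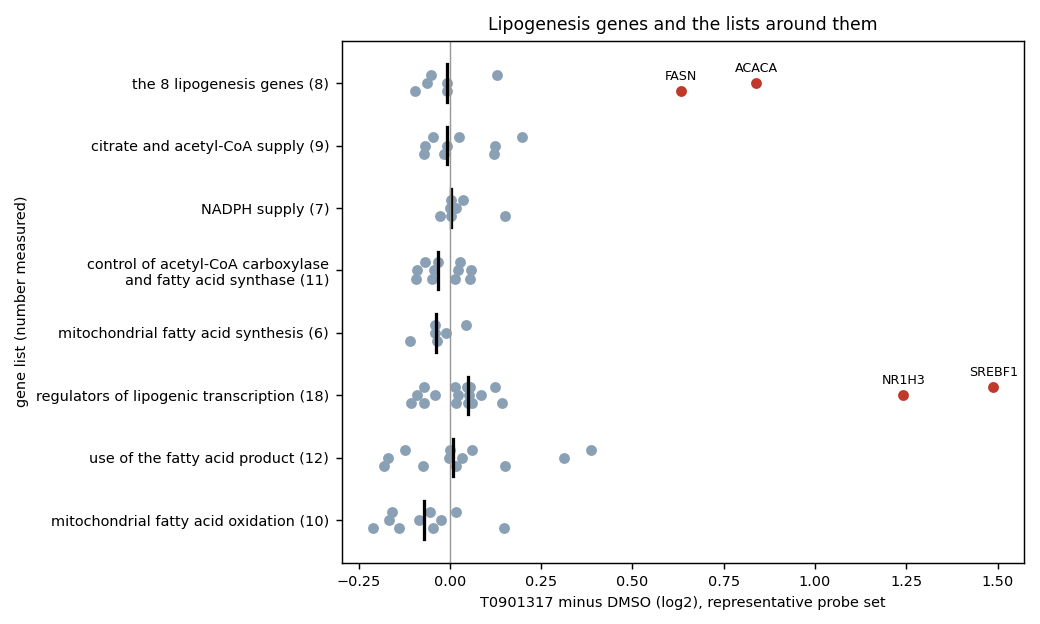
Log2 differences, T0901317 minus DMSO (horizontal axis), of the 8 lipogenesis genes and of 7 lists around them (vertical axis, number measured in brackets), by representative probe set. Points are genes, red with a name where the adjusted p was under 0.05, and black bars are medians. FASN (0.63), ACACA (0.84), NR1H3 (1.24) and SREBF1 (1.49) lie apart on the right, and the medians lie between -0.071 and 0.049.

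Markers of other cells were read beside these values, since fat cells, macrophages and endothelium also hold lipogenic enzymes. Of 9 adipocyte markers 5 were measured, with a mean log2 level of 6.81 to 7.18 on the vehicle arrays and 6.84 to 7.14 on the treated ones. ADIPOQ, a hormone of fat cells, differed by 0.0062 ± 0.098. PPARG had the highest difference of the 5, 0.24 ± 0.12, and was higher in 2 of 3 pairs. FABP4 had the lowest, -0.22 ± 0.30, with 0.76, 0.051 and -1.48 in the pairs. The 10 macrophage markers measured of 11 had means of 7.47 to 8.55 and 7.38 to 8.57. Of 10 endothelial markers 9 were measured. Their mean was higher in each pair, by 0.15, 0.15 and 0.24 (6.45 to 6.95 with DMSO and 6.69 to 7.10 with T0901317). KDR of this list and S100A12 of the blood cell list lay below the dim reference on all arrays. CD7 of the T and NK cell list and PPBP of the blood cell list had means below it, with 1 and 2 arrays above. Pericyte and smooth muscle markers, 5 of 8 measured, differed by -0.27, -0.10 and -0.27 (8.89 to 9.63 and 8.62 to 9.36). Markers of blood cells and neutrophils, 6 of 7 measured, had the largest shift of the 8 lists. It was -0.38, -0.16 and -0.24 in the pairs (5.41 to 6.01 and 5.03 to 5.78). Only 4 of the 6 had a mean above the dim reference. The 6 differences ran from -0.56 (S100A9) to 0.0016 (HBB), with -0.49 for PPBP and -0.0080 for S100A12. T and NK cell markers, 4 of 8 measured, had -0.19, -0.17 and -0.16 (8.14 to 8.92 and 7.98 to 8.76), and the 7 steroidogenic markers -0.14, -0.078 and -0.072 (7.75 to 8.08 and 7.68 to 7.94). Fibroblast markers, 7 of 8 measured, had -0.15, -0.10 and 0.042 (8.07 to 9.21 and 8.11 to 9.10). No marker of the 8 lists passed, and the part of these shifts in the rises of ACACA, FASN and MID1IP1 was not tested.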

How the data were processed

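RNA of 6 luteal cell cultures was measured on 1 array each. The deposited log2 values, 1.81 to 14.7, were made with RMA per the submitters' processing notes. The version of RMA, and whether the arrays were processed together, are not given in the sources used here. After removal of 99 control probe sets, 52766 were tested. Gene numbers came from the platform annotation, and those of all 8 members stand in the RefSeq gene table. Symbols were those of that table, or the annotation's own where the table gave none. Probe sets with several symbols (361) or no symbol (27449) were tested but not named. A listed gene counted as not measured may thus still be on the array. No coordinates are given, since the sources used here name no build for the array.

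The difference T0901317 minus DMSO was fitted with limma 3.58.1 in R 4.3.3, with the replicate number as a block and a variance trend in eBayes. Two-sided p-values were adjusted over all 52766 probe sets (Benjamini-Hochberg). The pairing comes from the series' design text. As a check, same-numbered arrays had correlated deviations from their group means (r = 0.658, 0.813 and 0.830 over probe sets), and no array correlated better with another number. Where a list needed 1 value a gene, the probe set of highest mean level represented it. Named genes are all probe sets of the members and, in each list, the members past the threshold or, where none passed, the 2 with the largest test statistic. For each called member, the 3 genes of most similar profile are named as well. Any further gene was named with its values in view. The members and lists were chosen with earlier results of these data known. Alternatives were no block, no variance trend, robust variances, 2 other normalizations, a filter on dim probe sets, array weights, an RNA quality covariate and leaving out each replicate. The fit was tested on simulated data, with the spread of each probe set drawn from limma's fitted prior, over 52766 probe sets of this comparison. It recovered 7 of 67 probe sets changed by 0.5 on the log2 scale, 61 of 67 changed by 1 and all 66 changed by 2. Of 139 calls, 5 were false. The simulated spread follows the fit's own model, and the data gave 45 calls, so these shares may not carry over to the data.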

Additional observations from a re-analysis of the deposited data

How the results depend on the processing

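Of the 17 probe sets 3 passed with the replicate block, and 1 to 3 when 1 replicate was left out. No probe set passed without the replicate block in limma (0 of 17, and 0 of all 52766; 2 and 143 at an unadjusted p under 0.05), nor did a member without the variance trend (0, with 3 at an unadjusted p under 0.05; adjusted p = 0.080 for ACACA, 0.24 for MID1IP1 and 0.33 for FASN). The same 3 passed with robust variances, both normalizations, the filter on dim probe sets, array weights and the RNA quality covariate. That covariate, like leaving out a replicate, leaves fewer residual degrees of freedom than the 2 of the main fit, so passing there adds little. Over the 11 alternatives the called differences kept their sign, at 0.81 to 0.88 for ACACA, 0.57 to 0.68 for FASN and 0.62 to 0.74 for MID1IP1. By the mean of a gene's probe sets 1 of the 8 genes passed, FASN, instead of 2, and by the probe set of largest variance 3 passed, ACACA, FASN and MID1IP1. Of all probe sets 45 passed, against 11 without the variance trend, 27 with quantile normalization, 27 with cyclic loess, 75 with array weights, 246 with the RNA quality covariate, and 35 to 328 without 1 replicate. Of the listed pathway genes 2 passed, but 0 without the replicate block and 1, NR1H3, without the variance trend. The cause of these shifts was not tested. The number of arrays limits the precision, and members that did not pass may still have changed. A change of 0.5 was recovered in 10.4% of simulated cases. That share depends on how many probe sets were changed and on how the simulated spread is drawn, here from limma's fitted prior.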
